A study of Sus scrofa with 15 samples.

Results

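NADPH oxidases are enzyme complexes that move electrons from NADPH across a membrane to oxygen and so make superoxide or hydrogen peroxide. The 9 genes described here encode the catalytic oxidases NOX1, NOX4, DUOX1 and DUOX2, the membrane partner CYBA (p22phox), the cytosolic subunit NCF4 (p40phox), the GTPase RAC2 and the DUOX maturation factors DUOXA1 and DUOXA2. They were chosen by their Sscrofa11.1 gene symbols and matched to 9 of the 30477 genes in the count files. RNA-seq libraries were made from backfat biopsies, that is, subcutaneous fat, of 15 Iberian pigs taken from a trial of 44 animals at the end of the growing period, with 5 pigs per diet. The control group (C) received a compound feed, the DOP group a compound feed that contained dry olive pulp, and the WCOC group a compound feed together with wet crude olive cake silage offered freely. By the paper, compound feed was restricted, to a larger share of free energy intake in C than in DOP and WCOC. Feeding level and olive by-product therefore cannot be told apart in the comparisons with C. Each diet was given in 1 pen, so diet and pen cannot be told apart, and the pigs sequenced were picked by RNA quantity and quality.

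In phagocytes the oxidase is assembled on demand: the catalytic chain and CYBA sit in the membrane, and cytosolic subunits such as NCF1 and NCF4 join them together with a Rac GTPase. NOX4 needs CYBA but no cytosolic subunits and makes mainly hydrogen peroxide, and it is known in adipocytes, fibroblasts and vessel walls. DUOX1 and DUOX2 are activated by calcium, carry an extra peroxidase-like domain, need their maturation factors to leave the endoplasmic reticulum, and are best known from thyroid, airway and gut epithelium.

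The 4 DUOX and DUOXA genes lie side by side on chromosome 1 of Sscrofa11.1, within 68.9 kb (chr1:126572533-126641406). DUOX1 (minus strand, 126572533 to 126603084) and DUOXA1 (plus strand, 126605142 to 126615736) start head to head with 2057 bases between them. DUOXA2 (minus strand, 126616631 to 126620359) and DUOX2 (plus strand, 126620468 to 126641406) also start head to head, here with only 108 bases between the annotated starts. This short stretch is shown because it is the whole upstream sequence shared by DUOX2, the member that differed between diets, and by its maturation factor. For contrast, the 250 bases upstream of the DUOX1 start are given on the DUOX1 strand (chr1:126603085-126603334). Both are written 5′ to 3′, the first on the plus strand (chr1:126620360-126620467), in lower case with the searched motif in capitals.
DUOXA2-DUOX2 gap: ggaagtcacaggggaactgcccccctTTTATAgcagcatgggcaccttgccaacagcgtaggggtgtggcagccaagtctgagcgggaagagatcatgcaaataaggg
DUOX1 upstream: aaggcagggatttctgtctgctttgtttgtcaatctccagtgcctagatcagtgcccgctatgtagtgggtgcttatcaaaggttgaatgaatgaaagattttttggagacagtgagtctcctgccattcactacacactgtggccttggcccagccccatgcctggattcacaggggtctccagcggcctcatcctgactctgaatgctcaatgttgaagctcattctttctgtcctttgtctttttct
The motifs searched on both strands were TATAAA (the TATA box), CCAAT (the CCAAT box), GGGCGG (the GC box) and GAGGAA (the purine-rich core of PU.1 sites). In the gap the only match was 1 TATAAA, read on the minus strand, the strand of DUOXA2, and so printed above as TTTATA; 4.53% of 19559 protein-coding genes held this motif in the 108 bases before their start. None of the motifs was found before DUOX1. In windows of 250 bases, TATAAA stood before 2 of the 9 genes (DUOX2 and DUOXA2, through the shared match) against 9.77% of all genes, CCAAT before 4 of 9 against 31.9%, GGGCGG before 4 of 9 against 45.9%, and GAGGAA before 1 of 9 (NCF4) against 21.97%. These matches are descriptions of letters and not of binding.

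The 15 libraries held between 22373715 and 34745218 counts on genes, and 14918 genes passed the filter on low counts. Adipocyte markers were abundant in every library, their 7 genes summing to between 12092 and 21377 CPM (counts per gene scaled to a common library size), with ADIPOQ, the gene of adiponectin, the most abundant. The skeletal muscle list, of which 3 of 8 genes were matched, summed to 38.9 to 2916 CPM in C, 29.8 to 37593 in DOP and 15.5 to 584 in WCOC. The median sums were 186, 4812 and 81.4 CPM, and ACTA1 was the most abundant. Flow cells and lanes were read from the run identifiers of the libraries, since the sample titles name neither. On this reading, libraries were on flow cell A (4 C and 5 WCOC) or flow cell B (1 C, replicate 5, and 5 DOP). On flow cell A, 4 C and 3 WCOC libraries were in lane 2 and 2 WCOC libraries (replicates 4 and 5) in lane 8, and all libraries of flow cell B were in lane 8. Values below are CPM after TMM scaling, a scaling of library sizes to the bulk of genes. A gene was called when its adjusted p in edgeR's quasi-likelihood test was under 0.05 and its log2 fold change (log2FC) at least 0.58 in size, the thresholds of the study. In WCOC vs. DOP the 3 skeletal muscle genes were all lower (median log2FC -5.83). An unadjusted p under 0.05 was reached by 3 of 3 (28.1% of all tested genes), and edgeR called 1 (TNNT3), DESeq2 3 and limma-voom 0. The part of muscle in the values below was not tested.

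Of the 9 genes, 5 passed the filter (CYBA, RAC2, NCF4, NOX4 and DUOX2) and 4 did not. Compared per length, as CPM per kb of the longest RefSeq transcript, their order was the same in each diet: CYBA, RAC2, NCF4, NOX4, DUOX2, DUOXA2, DUOXA1, NOX1 and DUOX1. CYBA stood at 45.1 ± 19.9 CPM per kb in C, 23.7 ± 3.98 in DOP and 28.7 ± 6.20 in WCOC (SD, n = 5), and its lowest library lay above the highest library of every other member. RAC2, NCF4, NOX4 and DUOX2 were close together in C, at 1.96 ± 0.589, 1.66 ± 0.520, 1.17 ± 0.332 and 1.06 ± 0.341 CPM per kb (SD, n = 5), and their ranges overlapped, so their order there is within the spread. In WCOC the lowest NOX4 library (0.686 CPM per kb) lay above the highest DUOX2 library (0.613). The read pairs were counted on Ensembl gene models, whose lengths were not used here.

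**Figure D1:**
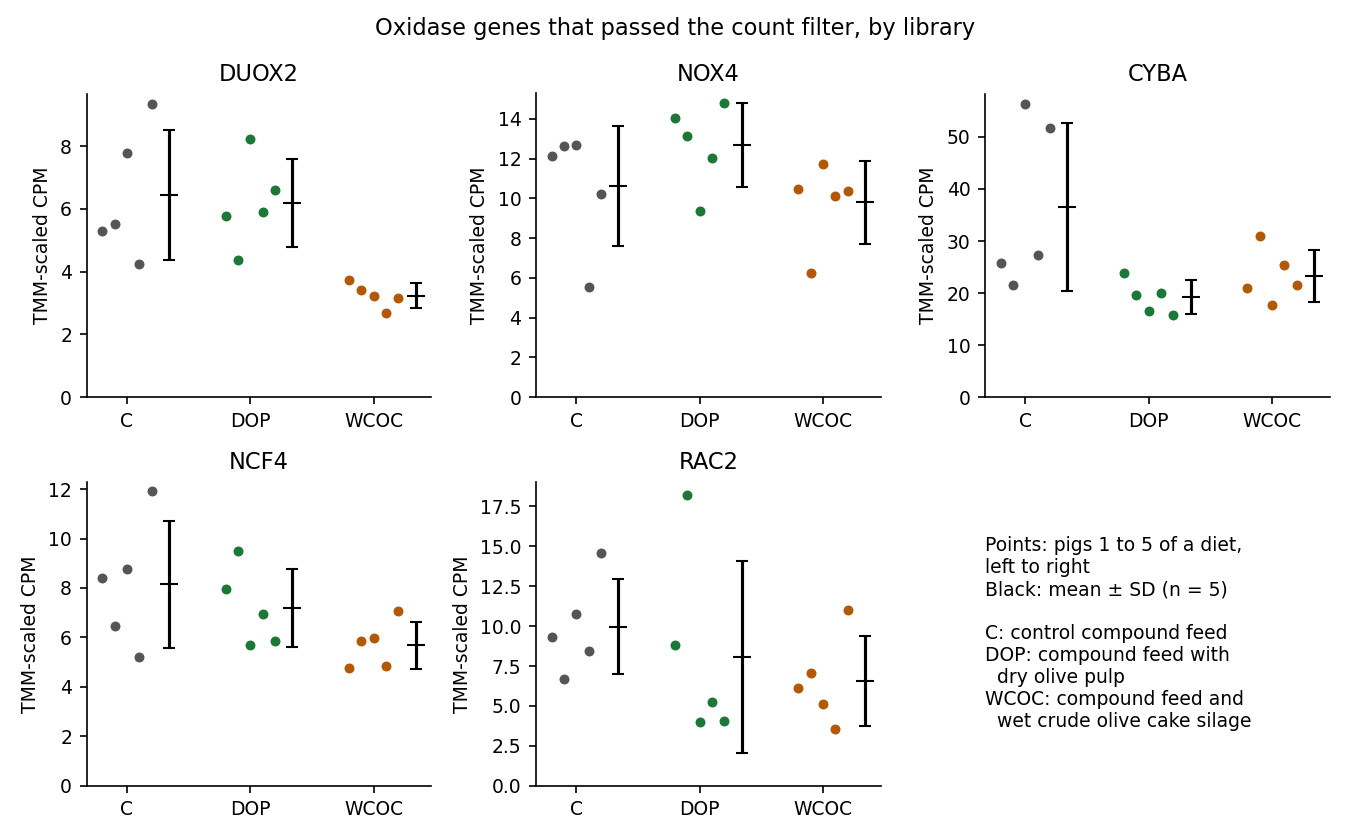
TMM-scaled CPM (vertical axes, from 0) of the 5 oxidase genes that passed the count filter, for pigs 1 to 5 of each diet, with mean ± SD in black (n = 5). The 5 WCOC points of DUOX2 lie below all C and DOP points, while the other genes overlap between diets.

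DUOX2 was the member that differed between diets. In C it stood at 5.30, 5.51, 7.77, 4.25 and 9.34 CPM in pigs 1 to 5. In DOP the values were 5.78, 4.38, 8.24, 5.90 and 6.59 CPM. In WCOC they were 3.73, 3.41, 3.23, 2.67 and 3.16 CPM. The WCOC pigs were all below the lowest pig of the other diets and also lay closest together, whereas C and DOP covered the same range. The counts behind these values were 84 to 114 read pairs per library in WCOC, 108 to 282 in C and 116 to 267 in DOP. In WCOC vs. C the log2FC of DUOX2 was -0.99 (SE 0.21, 95% interval -1.45 to -0.53), which is 1.99-fold lower, with an adjusted p of 0.0122 in edgeR's quasi-likelihood test. In WCOC vs. DOP it was -0.93 (SE 0.21, 95% interval -1.39 to -0.48), 1.91-fold lower, with an adjusted p of 0.0150 in the same edgeR test. In DOP vs. C it was -0.06 (SE 0.21, 95% interval -0.51 to 0.39). Over 9 alternatives the DOP vs. C value ranged from -0.60 to -0.04, with 0 called. All 5 DOP libraries were on flow cell B and 4 of the 5 controls on flow cell A. Diet and flow cell can therefore be told apart in DOP vs. C only through C replicate 5. Both comparisons with C use the same 5 control libraries, and WCOC vs. DOP is also the test of the difference between the changes in the olive diets. With flow cell as a covariate, WCOC vs. DOP gave -0.22 (edgeR adjusted p = 0.816), a fit in which the flow cells are linked only through C replicate 5, the control with the highest DUOX2. Within flow cell A, with 4 C and 5 WCOC libraries, WCOC vs. C was -0.83 (edgeR adjusted p = 0.0444). On the uncertain lane reading above, WCOC replicates 4 and 5, the lowest for DUOX2, shared no lane with a control. Within lane 2 of flow cell A, with 4 C and 3 WCOC libraries, the WCOC libraries still lay below all C libraries, but DUOX2 was not called (log2FC -0.73, edgeR adjusted p = 0.176), and 34 of all genes were.

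DUOX2 was 1 of the 5 tested members called in WCOC vs. C, against 6.25% of all tested genes (3.93% lower), and 1 of 5 in WCOC vs. DOP, against 7.76% (5.11% lower). In DOP vs. C edgeR called 0 of the 5, against 0.764% of all tested genes (0.55% lower). There DESeq2 called 1 (CYBA) and limma-voom 0. Over all genes DESeq2 called more than edgeR in DOP vs. C and limma-voom fewer, with the numbers given in the section on processing. An unadjusted p under 0.05 was reached by 1 of 5 in DOP vs. C (17.6% of all tested genes), by 3 of 5 in WCOC vs. C (26.4%) and by 1 of 5 in WCOC vs. DOP (28.1%). Every WCOC library was below every C library for 3.87% of all tested genes and below every DOP library for 4.77%, and DUOX2 was the 1 member among them in either case; every DOP library was below every C library for 1.76%, with 0 members among them. The median log2FC of the 5 members was -0.18 in DOP vs. C, -0.60 in WCOC vs. C and -0.34 in WCOC vs. DOP, beside medians of 0.01, 0.00 and 0.00 over all tested genes. In fat biopsies, fewer cells of a type and less RNA per cell cannot be told apart. Of the epithelial marker list, 6 of 9 genes were matched (KRT5, KRT14 and SFN were not), none of the list was at 0 in all libraries, and CDH1 was the most abundant. These 6 genes summed to 19.6 to 44.7 CPM in C, 18.97 to 26.0 in DOP and 26.6 to 73.3 in WCOC. Their median log2FC in WCOC vs. C was 0.71, with 5 genes higher and 1 lower. The part of epithelial cells in the DUOX2 values was not tested. edgeR called 0 of the 6 in any comparison, an unadjusted p under 0.05 was reached by 3 in DOP vs. C, 0 in WCOC vs. C and 3 in WCOC vs. DOP, limma-voom called 0, and DESeq2 called 3 in WCOC vs. DOP alone.

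**Figure D2:**
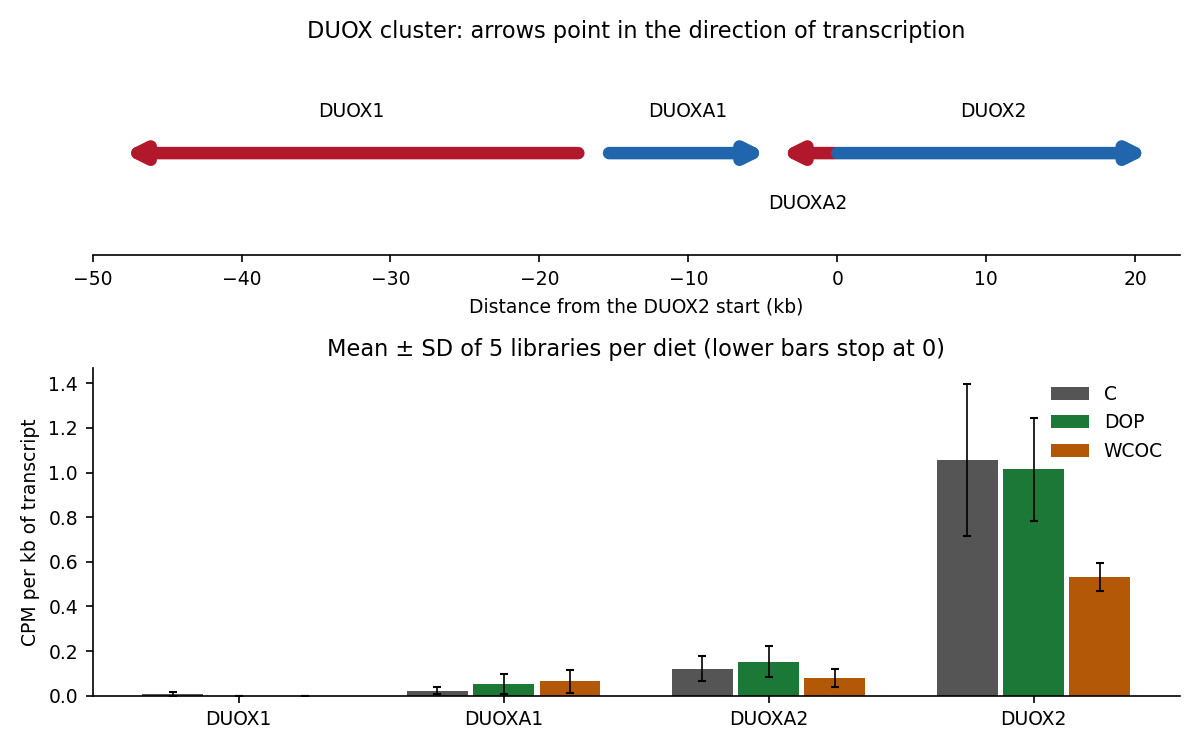
Top, the 4 DUOX and DUOXA genes by distance from the DUOX2 start in kb, with arrows in the direction of transcription; bottom, their mean CPM per kb of transcript by diet, with SD (n = 5). DUOX2 has the highest level of the 4 in each diet, at 1.06, 1.02 and 0.532 CPM per kb in C, DOP and WCOC, against at most 0.153 for DUOXA2.

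The 3 neighbours of DUOX2 were at the edge of detection, and the filter removed them. DUOXA2, which shares the 108-base gap with DUOX2, had 1, 4, 8, 4 and 7 counts in C, 4, 4, 8, 4 and 11 in DOP and 3, 2, 2, 4 and 7 in WCOC. It was present in 15 of 15 libraries and above 3 counts in 11. Per kb of transcript, DUOX2 exceeded DUOXA2 in 15 of 15 libraries, by 3.59- to 25.3-fold with a median of 7.83. DUOXA1 had 32 counts over all libraries and was above 3 counts in 2 of them, 1 in DOP (6 counts) and 1 in WCOC (6 counts). DUOX1 had 4 counts in all, 1 in C replicate 4 and 3 in C replicate 5, and 0 in every DOP and WCOC library. A count of 0 allows up to 3 counts, which is 0.0885 to 0.147 CPM in these libraries, for counting error only. Without the filter, the smallest adjusted p of these 3 genes and NOX1 in edgeR was 0.273 (DUOXA2 in WCOC vs. DOP, log2FC -0.89). At these counts a difference between diets in the maturation factors was not detectable.

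NOX4 and NOX1 are the other catalytic genes of the set. NOX4 (chr9:22622105-22776691, minus strand) stood at 12.1, 12.6, 12.7, 5.53 and 10.2 CPM in C, 14.1, 13.1, 9.35, 12.1 and 14.8 in DOP, and 10.5, 6.25, 11.8, 10.1 and 10.4 in WCOC. C replicate 4 and WCOC replicate 2 were the low libraries, and the diets overlapped throughout. Its log2FC was 0.25 (95% interval -0.21 to 0.72) in DOP vs. C, -0.12 (-0.58 to 0.34) in WCOC vs. C and -0.37 (-0.83 to 0.09) in WCOC vs. DOP, and the edgeR adjusted p-values were 0.596, 0.770 and 0.286. NOX1 (chrX:82540664-82575811, minus strand), the colon-type oxidase, had 13 counts over the 15 libraries, 5 of them in WCOC replicate 3. Its annotated span overlaps CSTF2 on the opposite strand, and the strand setting of the counting is not given in the sources used here.

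CYBA (chr6:1015212-1021422, plus strand) encodes the membrane partner of NOX1, NOX4 and the phagocyte oxidase. It stood at 25.8, 21.6, 56.3, 27.3 and 51.8 CPM in C. In DOP the values were 23.9, 19.7, 16.5, 19.98 and 15.8 CPM, and in WCOC 20.9, 30.9, 17.8, 25.4 and 21.6 CPM. C replicates 3 and 5 stood far above the rest, and the remaining controls overlapped both olive diets. The log2FC was -0.93 (SE 0.25, 95% interval -1.47 to -0.40) in DOP vs. C, with an unadjusted p of 0.00206 and an edgeR adjusted p of 0.0907. In WCOC vs. C it was -0.65 (SE 0.25), with an unadjusted p of 0.0193 and an edgeR adjusted p of 0.112. Neither was called. DESeq2 gave -0.94 with an adjusted p of 0.0104 in DOP vs. C, the 1 call among 9 alternatives, against 0 of 11 in WCOC vs. C. Over these 9 alternatives the log2FC in DOP vs. C ranged from -1.43 to -0.86. Of the controls, only replicate 5, at 51.8 CPM, was on flow cell B with the 5 DOP libraries. Diet and flow cell can thus be told apart in DOP vs. C only through that library. Of 15 fits that left out 1 library, 1 called CYBA in each comparison, the fit without C replicate 2, the lowest control. There edgeR gave -1.07 (adjusted p = 0.0497) in DOP vs. C and -0.79 (adjusted p = 0.0499) in WCOC vs. C. Without C replicate 3, the highest control, the log2FC was -0.73 and -0.45, not called. Over the 15 fits the edgeR adjusted p reached 0.195 in DOP vs. C and 0.275 in WCOC vs. C.

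NCF4 and RAC2, the cytosolic subunit and the blood-cell Rac, were not called in any comparison. NCF4 (chr5:10876147-10994002, minus strand) stood at 8.39, 6.45, 8.76, 5.22 and 11.9 CPM in C, 7.95, 9.51, 5.71, 6.95 and 5.86 in DOP, and 4.75, 5.84, 5.97, 4.83 and 7.05 in WCOC. The WCOC pigs lay at the lower end of the control range, 2 of them below it. Its log2FC in WCOC vs. C was -0.52 (SE 0.21, unadjusted p = 0.0265, edgeR adjusted p = 0.134). The gene overlaps PVALB, the calcium buffer of fast muscle fibres, on the opposite strand. PVALB ranged from 0 to 2514 counts between libraries and was highest in DOP replicate 5, where NCF4 stood at 5.86 CPM. The effect of this overlap on the NCF4 counts was not tested.

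RAC2 (chr5:10553986-10571082, plus strand) stood at 9.32, 6.66, 10.8, 8.45 and 14.6 CPM in C, 8.84, 18.2, 3.98, 5.26 and 4.08 in DOP, and 6.12, 7.04, 5.13, 3.53 and 11.004 in WCOC. DOP replicate 2 was the highest of all libraries, and the other 4 DOP pigs lay within or below the control range. The log2FC in DOP vs. C was -0.31 (SE 0.41, edgeR adjusted p = 0.753) and became -0.86 without DOP replicate 2, still not called. In WCOC vs. C it was -0.60 (SE 0.41, edgeR adjusted p = 0.367). DOP replicate 2 also had the highest sum of the B cell list (11.6 CPM, 5 genes, CD79A at 0 in all libraries). The T cell list (6 of 7 genes matched) summed to 31.3 CPM in DOP replicate 2 and equally to 31.3 CPM in DOP replicate 1, where RAC2 was 8.84 CPM. The part of these cells in the RAC2 values was not tested.

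**Figure D3:**
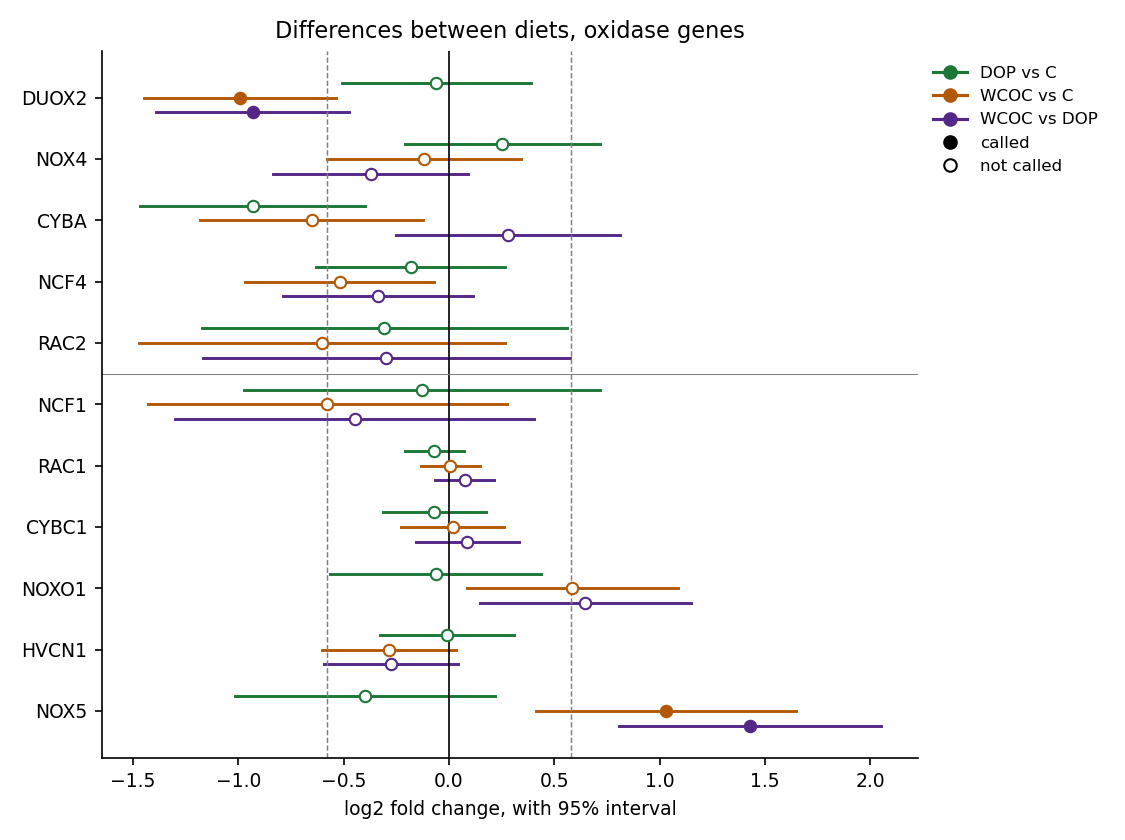
log2FC with 95% interval (horizontal axis) of the 5 tested members (above the line) and 6 other oxidase subunits (below it) in the comparisons of DOP and WCOC with C and with each other; filled points were called, dashed lines mark a log2FC of 0.58 in either direction. DUOX2 was called lower, and NOX5 higher, in comparisons with WCOC.

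Of the other oxidase subunits, RAC1, CYBC1, HVCN1, NCF1, NOXO1 and NOX5 were tested; CYBB, the phagocyte catalytic chain, and NOXA1 were not analysed here, NOX3 never passed 3 counts and POLDIP2 was at 0 throughout. Of these 6 genes edgeR called 1 (NOX5) higher in WCOC vs. C and in WCOC vs. DOP. In DOP vs. C edgeR, DESeq2 and limma-voom called 0 of the 6, and 0 had an unadjusted p under 0.05.

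NOX5 (chr1:166866930-166907994) is the calcium-activated oxidase that needs no partner subunits, and it was higher in WCOC, the opposite direction to DUOX2. It stood at 3.73, 8.12, 5.03, 3.43 and 6.59 CPM in C, 3.33, 2.08, 5.62, 3.79 and 5.54 in DOP, and 11.6, 7.04, 12.6, 10.6 and 13.2 in WCOC. All WCOC pigs were above all DOP pigs, and 1 WCOC pig (replicate 2) fell within the control range. The log2FC was 1.43 (SE 0.29, 2.70-fold higher, edgeR adjusted p = 0.00871) in WCOC vs. DOP and 1.03 (SE 0.29, 2.04-fold higher, edgeR adjusted p = 0.0361) in WCOC vs. C. With flow cell as a covariate the WCOC vs. DOP call was lost (log2FC 1.81, edgeR adjusted p = 0.275), in the fit that is linked through C replicate 5. The WCOC vs. C call held in 7 of the 15 fits that left out 1 library; it was lost without C replicate 1, 3, 4 or 5 or WCOC replicate 1, 3, 4 or 5 (log2FC 0.90 to 1.11, edgeR adjusted p 0.0504 to 0.0835), and also within lane 2 of flow cell A (1.03, edgeR adjusted p = 0.174). The 2 calcium-activated oxidase genes that were tested, DUOX2 and NOX5, were thus called in opposite directions. RAC1, CYBC1, HVCN1, NCF1 and NOXO1 were not called in any comparison by edgeR, and DESeq2 called NOXO1 higher in WCOC vs. DOP.

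**Figure D4:**
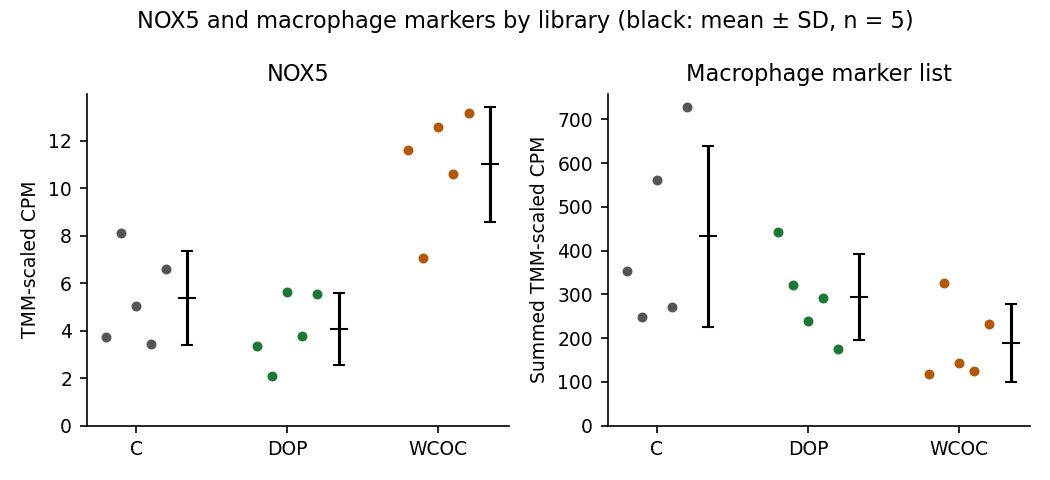
TMM-scaled CPM of NOX5 and summed CPM of the macrophage marker list (vertical axes, from 0) for pigs 1 to 5 of each diet, with mean ± SD in black (n = 5). NOX5 is highest in WCOC, and C replicates 3 and 5 are highest for the macrophage list.

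Some macrophage markers were called lower in WCOC. Of 11 macrophage markers, 10 were matched (ADGRE1 was not) and none was at 0 throughout, and they summed to 248 to 728 CPM in C, 176 to 442 in DOP and 117 to 326 in WCOC. CSF1R, the receptor for the macrophage growth factor, was the most abundant. In WCOC vs. C 5 of the 10 were called lower (CD68, CD163, MRC1, AIF1 and MSR1) with a median log2FC of -1.17, in DOP vs. C 1 (MSR1, median -0.50), and in WCOC vs. DOP 1 (CD163, median -0.68). In the same order, edgeR called 6.25%, 0.764% and 7.76% of all tested genes (3.93%, 0.55% and 5.11% lower). An unadjusted p under 0.05 was reached by 10 of 10 in WCOC vs. C, 5 in DOP vs. C and 4 in WCOC vs. DOP. The shares over all tested genes were 26.4%, 17.6% and 28.1%. DESeq2 called 9, 3 and 2 lower in the same order, and limma-voom 6, 0 and 1. The highest sums were those of C replicates 3 and 5, the libraries highest for CYBA. Neutrophil markers (4 of 6 matched, S100A12 the most abundant) summed to 23.6 to 92.5 CPM in C, 25.2 to 50.3 in DOP and 13.7 to 65.7 in WCOC; edgeR called 0 of the 4 in any comparison, 1 had an unadjusted p under 0.05 in DOP vs. C, 1 in WCOC vs. C and 0 in WCOC vs. DOP, limma-voom called 0 and DESeq2 called 1 lower in WCOC vs. C. The adipocyte and endothelial lists had positive medians in WCOC vs. C, as had the epithelial list, the opposite sign to the macrophage list. In DOP vs. C the adipocyte and endothelial medians were positive too (log2FC 0.13 and 0.38). The 7 adipocyte markers summed to 12092 to 15940 CPM in C, 14663 to 18918 in DOP and 14941 to 21377 in WCOC. Their median log2FC in WCOC vs. C was 0.42, with 5 genes higher and 2 lower and an unadjusted p under 0.05 for 4 of 7. There edgeR, DESeq2 and limma-voom each called 1 higher (ADIPOQ, log2FC 0.66, SE 0.17, edgeR adjusted p = 0.0281). In WCOC vs. DOP 5 were also higher and 2 lower, and each of these tools called 2 higher (PLIN4 and LEP). Of the endothelial list, 5 of 6 genes were matched (VWF was not), none was at 0 throughout and PECAM1 was the most abundant; they summed to 817 to 1026 CPM in C, 1048 to 1404 in DOP and 884 to 1437 in WCOC. In WCOC vs. C all 5 had a log2FC above 0 (median 0.31), with an unadjusted p under 0.05 for 3, and the same 3 tools each called 1 higher (CLDN5, a tight junction gene, log2FC 0.75, SE 0.16, 1.68-fold, edgeR adjusted p = 0.0123). The part of all these cells in the values of DUOX2, CYBA, NCF4 and RAC2 was not tested.

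Upstream of the oxidase, 12 of 14 Rac regulators were tested. VAV1, the exchange factor that loads Rac in blood cells, and TIAM1, another Rac exchange factor, were called lower in WCOC vs. C, with log2FC of -1.49 (SE 0.40, edgeR adjusted p = 0.0321) and -1.44 (SE 0.38, edgeR adjusted p = 0.0306). Either call held in 10 of 15 fits that left out 1 library, being lost without C replicate 3 or 5 or WCOC replicate 1, 3 or 4 (edgeR adjusted p 0.0695 to 0.0863), and in 6 of 11 alternatives. VAV1 and TIAM1 were no longer called within flow cell A (edgeR adjusted p = 0.104 and 0.131) or its lane 2 (0.226 and 0.302), with flow cell as a covariate (0.0817 and 0.0773) or in a fit of only the diets compared (0.0516 and 0.0628), nor with replicate number as a block. In WCOC vs. C 9 of the 12 were lower and 3 higher, and 5 had an unadjusted p under 0.05 (26.4% of all tested genes). The 2 edgeR calls stood beside 6.25% of all tested genes. DESeq2 called 4 lower (VAV1, TIAM1, PREX1 and DOCK2) and limma-voom 2 (VAV1 and TIAM1). In DOP vs. C 9 were lower and 3 higher, and 8 had an unadjusted p under 0.05 (17.6% of all). There edgeR called 0 of the 12, DESeq2 4 lower and limma-voom 0. PREX2 was higher but under the fold threshold in WCOC vs. C (log2FC 0.47, edgeR adjusted p = 0.0166) and DOP vs. C (0.54, 0.0397). In WCOC vs. DOP edgeR, DESeq2 and limma-voom called 0, and 1 had an unadjusted p under 0.05 (28.1% of all). All 12 genes of the activation signalling list (protein kinase C, PI3-kinase and Src-family members among them) were tested, and edgeR called 0 in any comparison, with an unadjusted p under 0.05 for 3 in DOP vs. C, for 2 in WCOC vs. C and for 1 in WCOC vs. DOP; DESeq2 called 1 in DOP vs. C, and limma-voom called 0. Of the heme peroxidases, which use hydrogen peroxide, LPO, MPO and EPX never passed 3 counts in a library; PXDN, the matrix peroxidase, was the 1 tested and had a log2FC of 0.57 in DOP vs. C (edgeR adjusted p = 0.0452), just under the fold threshold.

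The members did not vary as 1 group from pig to pig. After the diet means were removed, the Pearson r over the 15 libraries, given without a test, was highest for NCF4 with RAC2 (0.78), followed by CYBA with NCF4 (0.56), and lowest for RAC2 with DUOX2 (-0.10). Among 11128 genes compared in the same way, the genes most like RAC2 were RHOH (0.97), IKZF1 (0.96) and PTPRC (0.95), all known from white blood cells. Those most like CYBA were CADM1 (0.97), IFI30 (0.94) and DOK1 (0.94), and those most like NCF4 were FCHO1 (0.92), SCIMP (0.90) and APBB1IP (0.90). Those most like NOX4 were KLF3 (0.91), HOXB3 (0.91) and ZNF391 (0.89). DUOX2 had the lowest leading values, with SNX2 (0.84), SGPL1 (0.84) and DNAI3 (0.84). The points share libraries, pens and depth, and the highest of many r values is high by choice.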

How the data were processed

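Backfat RNA of 15 Iberian pigs (5 per diet) was read as paired-end libraries. The authors aligned the reads to Sscrofa11.1 with HISAT2, set for strand-specific libraries, and counted read pairs per Ensembl gene with HTSeq; versions, the annotation release and the strand setting of the counting are not given in the sources used here. The deposited values are raw counts per gene. The 5 summary lines of each file, 23.4% to 32.8% of read pairs, were left out. Diets came from the labels, and flow cells and lanes were read from run identifiers.

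Tests were run on the counts with edgeR 4.0.16 in R 4.3.3: filterByExpr, TMM, 1 mean per diet over all 15 libraries, two-sided quasi-likelihood tests, Benjamini-Hochberg adjustment over 14918 genes. DESeq2 1.42.0 and limma 3.58.1 (voom) were alternatives, beside other scalings, filters, covariates and leaving out each library; log2 CPM used a prior count of 1. SEs came from unshrunk coefficients and the F statistic. The workflow was tested on simulated data. Positions, transcript lengths and sequence are those of RefSeq on Sscrofa11.1. Symbols were matched for 14864 genes. Members and lists were chosen with earlier results of these data known. Beyond members, genes were named if called (at most 4 per list and comparison), if most abundant in a marker list, or if among the 3 most like a member. PXDN and PREX2 were named besides, with an adjusted p under 0.05 but under the fold threshold. Pigs of a diet were counted as replicates; within a diet no libraries agreed within sampling noise. Some genes of the lists are not reported here.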

Additional observations from a re-analysis of the deposited data

Results flagged for a closer look

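NOX1 in WCOC replicate 3 stood at 0.163 CPM, which rests on 5 counts, and lay apart from the other 4 WCOC libraries: the gap to the next one took a share of 0.771 of the range of the group. Of 25 groups of 5 libraries that could be examined in this way, 1 stood out; chance gives about 1 in 20 for continuous values, a rate that need not hold for counts as low as these. The change of DUOX2 differed between the olive diets, since the change in WCOC minus the change in DOP, both against C, was -0.93 on the log2 scale (edgeR adjusted p = 0.0150); it was lower in 5 of 5 WCOC libraries than in every DOP library. WCOC and DOP were run on different flow cells, so flow cell and diet cannot be told apart in this comparison except through 1 control library.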

How the results depend on the processing

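DUOX2 in WCOC vs. C stayed called in 10 of 11 alternatives (log2FC -1.002 to -0.73, adjusted p 0.000288 to 0.176 with edgeR, DESeq2 or limma-voom), all but lane 2 of flow cell A (-0.73), and in 15 of 15 fits without 1 library (-1.11 to -0.82). In WCOC vs. DOP it stayed called in 8 of 9 and 15 of 15. Members called in DOP vs. C were 1 with DESeq2, in WCOC vs. C 0 within lane 2 of flow cell A (4 C and 3 WCOC libraries), and in WCOC vs. DOP 0 with flow cell as covariate. Leaving out 1 library gave 0 to 1 members called in DOP vs. C, 1 to 2 in WCOC vs. C and 1 to 1 in WCOC vs. DOP. Over all genes, DOP vs. C (114) became 518 with DESeq2, 19 with limma-voom, 2 with only the diets compared and 0 with the replicate block; WCOC vs. C (933) became 473 with the replicate block, 486 within flow cell A, 34 within its lane 2 and 1493 without the fold threshold; WCOC vs. DOP (1158) became 561 with the replicate block, 1 with flow cell as covariate and 1842 without the fold threshold. Leaving out 1 library gave 0 to 200, 468 to 1163 and 639 to 1291; DOP vs. C fell to 0 without C replicate 3, C replicate 5, DOP replicate 2 or DOP replicate 4, to 1 without DOP replicate 5 and to 4 without DOP replicate 3, and WCOC vs. C fell to 468 without WCOC replicate 1. Signs turned for NCF4 (0.39) and RAC2 (0.43) in WCOC vs. DOP with flow cell as covariate, for RAC2 in WCOC vs. DOP without DOP replicate 2 (0.24, range -0.57 to 0.24), and for DUOX2 in DOP vs. C without C replicate 3 (0.01), C replicate 5 (0.11) or DOP replicate 2 (0.04; range -0.19 to 0.11). The cause was not tested.

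Replicate numbers did not pair the pigs: deviations of same-numbered pigs correlated between -0.50 and 0.34 (15 pairs). With the replicate block, DUOX2 remained called in WCOC vs. C (-0.94, edgeR adjusted p = 0.0247) and in WCOC vs. DOP (-0.91, edgeR adjusted p = 0.0264), and NOX5, VAV1 and TIAM1 were no longer called in WCOC vs. C. These 3 genes were put through the alternatives, and the lane 2 fit was added, after seeing the data. Depth limits DUOX1, DUOXA1, DUOXA2 and NOX1, whose counts allow no statement on diet.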
